A study of Oryctolagus cuniculus with 15 samples.

Results

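A set of 10 genes that mark corneal epithelial cells was followed through cultures of rabbit corneal keratocytes. They are the keratins KRT3, KRT12, KRT5, KRT16 and KRT17, the junction genes COL17A1, DSP, PERP and CDH1, and CRCT1. These 10 of the 23428 genes in the deposited tables were taken by their gene identifiers, and all 10 were present. They were chosen because their levels differed between these libraries, mainly between 3DF and 2DC. Their levels are therefore given as a description. Where a fit over all genes called them, the count is stated beside the share of all genes called, and it is no independent evidence of a difference.

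The bulk RNA-seq covered 15 libraries, 3 for each of 5 culture conditions. All cells were first-passage keratocytes from corneas of New Zealand white rabbits, grown for 6 days in serum-free medium, and no age is given. Before the keratocytes were isolated, the epithelium was taken off with alcohol and scraping and the endothelium was scraped away. In 2DC the cells lay on collagen-coated dishes, which were incubated with digestion medium before lysis. In 2DC_L they were grown in the same way and lysed without that incubation. In 2DF they lay on top of a matrix of fibrillar collagen. In 3DF they were embedded in that matrix at 100000 cells per matrix, and in 3DF_50 at 50000. The matrices of 2DF, 3DF and 3DF_50 were lifted out and also incubated with digestion medium, and the freed cells were pelleted and rinsed before lysis. The 2DC dishes were rinsed after the incubation and lysed in place. The part of these steps in the levels was not tested. Each library pooled the dishes or matrices of 1 experiment, so differences between single dishes are not seen. The libraries have names that start with a prefix (E2 to E10), which the labels do not explain. No genotype or drug differed between the conditions.

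The corneal epithelium is a stratified sheet that covers the stroma, where keratocytes live. Keratins are the intermediate filament proteins of epithelial cells and work in pairs of a type I and a type II chain. KRT3 and KRT12 form the pair that is characteristic of differentiating corneal epithelial cells. KRT5, with KRT14, is typical of the basal layer, and KRT16 and KRT17 are known from wounded or fast-growing epithelia. Keratin filaments end at desmosomes, which join neighbouring cells, and at hemidesmosomes, which anchor basal cells to the basement membrane. Keratocytes are mesenchymal cells that normally have neither structure.

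The 10 genes are low in every library. Together they took between 29 and 1450 reads in a library, and the highest level of any of them was 6.19 FPKM (fragments per kilobase of gene, scaled to library size), for KRT5 in 3DF replicate 2. In the same libraries the corneal keratocyte markers were abundant. The summed level of 10 of them ran from 23817 to 53114 FPKM, and KERA (keratocan), a proteoglycan of the stroma, had 3339 ± 1053 FPKM (SD, n = 3) in 3DF and 2908 ± 489 in 2DC. Libraries held 14626982 to 31804255 counted reads, so 3 reads, taken here as the floor in a library, are a very small share of any of them. In bulk RNA, a change in the number of cells of a type and a change in RNA per cell cannot be told apart.

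KRT12 had the sharpest division between the conditions. It lies on chromosome 19 (41920699 to 41925846, minus strand, oryCun2). In 3DF the 3 libraries held 114, 183 and 138 reads, or 2.47, 4.40 and 3.72 FPKM. In 2DC_L, as in 2DC, no read was counted in any library. The 2DF libraries held 0, 41 and 8 reads, or 0, 1.26 and 0.25 FPKM. The 3DF_50 libraries held 0, 0 and 77 reads, and the level in replicate 3 was 2.13 FPKM. All 3DF libraries were above all others, while 2DF and 3DF_50 each held a library without a read. Against the floor, the mean in 3DF was at least 52-fold higher than in 2DC.

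KRT3, the partner chain of KRT12 (chromosome 4, 36733353 to 36739450, minus strand), had 0.988, 1.52 and 1.25 FPKM in the 3DF libraries. It had 0.0143, 0.0763 and 0.0759 FPKM in 2DC, from 1 to 4 reads, and 0.0872, 0.0297 and 0.0507 FPKM in 2DC_L. In 2DF the levels were 0.168, 1.14 and 0.531 FPKM. In 3DF_50 they were 0.0238, 0 and 1.49 FPKM. The order of the means was 3DF, 2DF, 3DF_50, 2DC_L and 2DC, and each condition overlapped with the next one in that order. The means of 3DF and 2DC, which did not overlap, differed by 22.6-fold.

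KRT5 (chromosome 4, 36529461 to 36552660, minus strand) was the most abundant of the 10 genes in 3DF. Its levels there were 3.54, 6.19 and 3.57 FPKM. In 2DF they were 0.517, 3.24 and 2.01 FPKM, all below 3DF. In 3DF_50 they were 0.0135, 0.116 and 2.02 FPKM. The 2DC libraries had 0.0405, 0.0325 and 0.646 FPKM, and the 2DC_L libraries 0.148, 0.0422 and 0.647 FPKM. The last library of each of these conditions thus stood apart from the other two, and its 60 reads in 2DC and 45 in 2DC_L were well above the floor. The ratio of the means of 3DF and 2DC was 18.5.

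KRT17, a keratin of wounded epithelia, lies on chromosome 19 (42579237 to 42583993, minus strand), next to KRT16 (42570171 to 42573029, minus strand). In 3DF the levels of KRT17 were 2.88, 4.49 and 2.71 FPKM. In 2DF they were 0.186, 4.42 and 2.09 FPKM, so 2DF replicate 2 lay within the range of 3DF. In 2DC they were 0, 0 and 0.412 FPKM, and in 2DC_L 0.0451, 0 and 0.315 FPKM. In 3DF_50 they were 0, 0.14 and 2.22 FPKM. KRT16 was lower, with 0.243, 0.511 and 0.693 FPKM in 3DF. No KRT16 read was counted in 2DC, and 2DF held 7, 5 and 4 reads and 3DF_50 1, 3 and 14. The KRT16 mean in 3DF was at least 6.36-fold above that in 2DC. Keratin genes are alike in sequence, and how reads that match several of them were counted is not given in the sources used here.

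**Figure D1:**
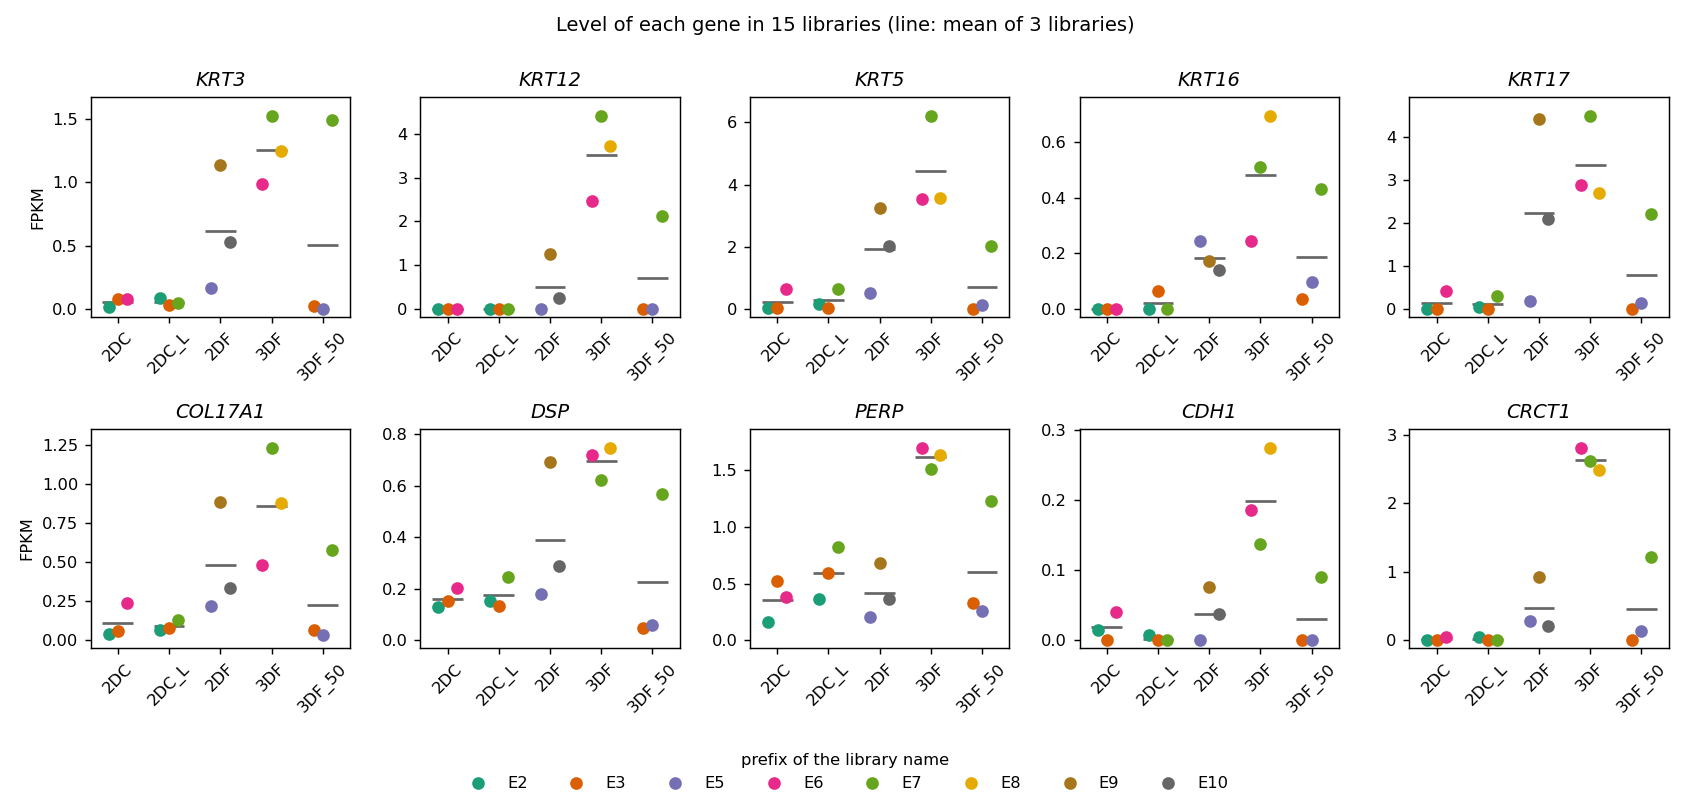
FPKM of each of the 10 genes (vertical axes, linear, each with its own range) in the 3 libraries of each condition. Points are libraries coloured by the prefix of their name and lines are means. For all 10 genes the 3DF points lie above all 2DC points, and 1 library of 3DF_50 (E7) stands apart from the other two.

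The hemidesmosome gene among the 10, COL17A1, encodes the transmembrane collagen XVII (chromosome 18, 51947095 to 51995846, minus strand). It had 0.479, 1.23 and 0.875 FPKM in 3DF and 0.0397, 0.0606 and 0.241 FPKM in 2DC, a ratio of means of 7.57. In 2DF it had 0.219, 0.887 and 0.335 FPKM, so 2DF and 3DF overlapped. In 3DF_50 it had 0.0661, 0.036 and 0.576 FPKM. Unlike KRT12, it was above the floor in every library, with at least 4 reads.

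Of the desmosome genes, DSP encodes desmoplakin, which ties keratin filaments to the plaque (chromosome 12, 1278832 to 1313234, plus strand). Its levels in 3DF were 0.72, 0.623 and 0.747 FPKM. In 2DC they were 0.13, 0.154 and 0.203 FPKM and in 2DC_L 0.151, 0.132 and 0.244 FPKM. In 2DF they were 0.181, 0.693 and 0.289 FPKM, and in 3DF_50 0.0496, 0.059 and 0.567 FPKM. The first and second 3DF_50 libraries were thus lower than every library of 2DC. The ratio of the means of 3DF and 2DC was 4.29, the smallest of the 10 genes.

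PERP, a membrane protein of desmosomes and a target of p53 family factors (chromosome 12, 128515987 to 128527634, minus strand), had the highest mean of the 10 genes in 2DC and 2DC_L. It had 0.161, 0.526 and 0.381 FPKM in 2DC, 0.365, 0.597 and 0.827 in 2DC_L and 0.21, 0.686 and 0.363 in 2DF. Those 3 conditions overlapped. In 3DF it had 1.7, 1.51 and 1.64 FPKM, above all other libraries, and in 3DF_50 0.328, 0.256 and 1.23 FPKM. CDH1 encodes E-cadherin, the adhesion protein of adherens junctions (chromosome 5, 24238733 to 24306348, plus strand), and had the lowest mean of the 10 in 3DF. Its 3DF libraries held 21, 14 and 25 reads (0.186, 0.137 and 0.274 FPKM). The most in any 2D library was 6 reads, in 2DF replicate 2, and 3DF_50 held 0, 0 and 8.

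CRCT1 encodes a small cysteine-rich protein of the epidermal differentiation complex (chromosome 13, 39753611 to 39755196, minus strand). Its levels in 3DF lay close together, at 2.81, 2.61 and 2.49 FPKM. It had 0, 0 and 1 reads in 2DC and 1, 0 and 0 in 2DC_L. The 2DF libraries had 0.287, 0.926 and 0.217 FPKM and the 3DF_50 libraries 0, 0.136 and 1.22 FPKM. The 3DF libraries were above all others. The mean was at least 16.8-fold above 2DC.

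Set against all genes, every library of 3DF was above every library of 2DC for 10 of 10 genes, an order that 17.6% of the genes with at least 10 reads in the pair showed. The rule that chose the genes used this contrast, so nothing is read from that count. Against 2DF, 3DF was higher without overlap for 5 of 10 genes (14% of all genes), and against 3DF_50 for 7 of 10 (15.2%). 2DF was above 2DC without overlap for 3 of 10 (15.6%) and 3DF_50 above 2DC for 1 of 10 (23.1%). That 1 gene was KRT16, with 1, 3 and 14 reads in 3DF_50, where up to 3 reads are at the floor. None of 6 genes separated 2DC from 2DC_L, where 6.87% of all genes were higher and 5.52% lower in 2DC without overlap. In the edgeR fit over all genes, 9 of the 10 passed the filter for 3DF vs 2DC and were called higher (adjusted p at most 0.05 and at least a log2 change of 1), beside 3.24% of the 13493 genes tested. KRT16 was too low to be tested. Of the genes called, only DSP had at least 10 reads in every 2DC library. The others, KRT12 and CRCT1 among them, passed the filter only through 3DF, so their calls are no evidence of a difference. COL17A1 was no longer called without 2DC replicate 2 (log2 change 2.65), nor KRT17 by DESeq2 (4.61).

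In 3DF vs 2DF, 2 of 9 genes were called, beside 2.09% of all genes called higher. They were CRCT1, with a log2 difference of 2.45 (SE 0.49), and PERP, with 1.94 (SE 0.40). CRCT1 had 4, 13 and 3 reads in 2DF and PERP 7, 23 and 12, so both passed the filter through 3DF, and their calls support nothing. KRT12 missed the threshold at 2.80 (SE 0.75), as did KRT17 at 0.59 (SE 0.67). The calls depended on single 2DF libraries. Without 2DF replicate 1, and without 2DF replicate 3, 0 genes were called, and without 2DF replicate 2, the library in which the 10 genes were highest, 4 were. Without 3DF replicate 3, 1 was.

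edgeR called 0 of 5 genes in 2DF vs 2DC, where 4.96% of all genes were called, 4 of the 5 had an unadjusted p under 0.05, and DESeq2 called 3. Without 2DC replicate 3 edgeR called 4, and without 2DF replicate 1 it called 3. In 3DF_50 vs 2DC 0 of 3 were called (11.6% of all genes), 0 had an unadjusted p under 0.05 and DESeq2 called 1. In 3DF_50 vs 2DF 0 of 6 were called by either tool (4.45%), with 0 at an unadjusted p under 0.05. In 3DF vs 3DF_50 0 of 10 were called by either tool (0.452%), but 8 of the 10 had an unadjusted p under 0.05. All 3 of these counts hung on 3DF_50 replicate 3. Without that library edgeR called 1 gene in 3DF_50 vs 2DC, 4 in 3DF_50 vs 2DF and 8 in 3DF vs 3DF_50. These counts do not stand for higher levels in 3DF_50. In its replicates 1 and 2, KRT5 (0.0135 and 0.116 FPKM) lay below every 2DF library (0.517 to 3.24). DSP (0.0496 and 0.059 FPKM) lay below every 2DC library (0.13 to 0.203). KRT16, with 1 and 3 reads there and 0 in 2DC, was at the floor in all of these libraries, so no order is read from it. In 2DC vs 2DC_L 0 of 4 were called by either tool (0.265%), and 0 had an unadjusted p under 0.05.

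Libraries of 1 condition differed along with the prefix of their names. The summed level of the 10 genes was 16, 23.2 and 18 FPKM in the 3DF libraries, which carry E6, E7 and E8. The 2DC libraries had 0.401, 0.85 and 2.06 FPKM, and the highest was the one named E6. In 2DC_L the values were 0.917, 0.942 and 2.21 FPKM, and the highest was E7. In 3DF_50 they were 0.516, 0.841 and 12 FPKM, and the highest was again E7. So the 3 libraries outside 3DF that carry E6 or E7 were each the highest of their condition, and no library outside 3DF carries E8. The 2DF libraries, E5, E9 and E10, had 2.01, 13.5 and 6.27 FPKM.

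Within a shared prefix the contrast between 3D and 2D differed. Among libraries named E6, the summed level was 2.06 FPKM in 2DC and 16 in 3DF. For E7 it was 2.21 FPKM in 2DC_L, 12 in 3DF_50 and 23.2 in 3DF. For E3, in contrast, it was 0.85 FPKM in 2DC, 0.942 in 2DC_L and 0.516 in 3DF_50, and for E5 it was 2.01 in 2DF and 0.841 in 3DF_50. The 3D library was thus the higher one in E6 and E7 and the lower one in E3 and E5. No prefix joins 3DF with 2DF. With a term for the prefix in a fit of all 5 conditions, 4 of the 9 genes kept their call in 3DF vs 2DC. KRT3 (log2 difference 3.30), COL17A1 (1.65), DSP (1.25), PERP (1.57) and CDH1 (2.38) lost it. What the prefix stands for, and its part in these levels, was not tested.

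**Figure D2:**
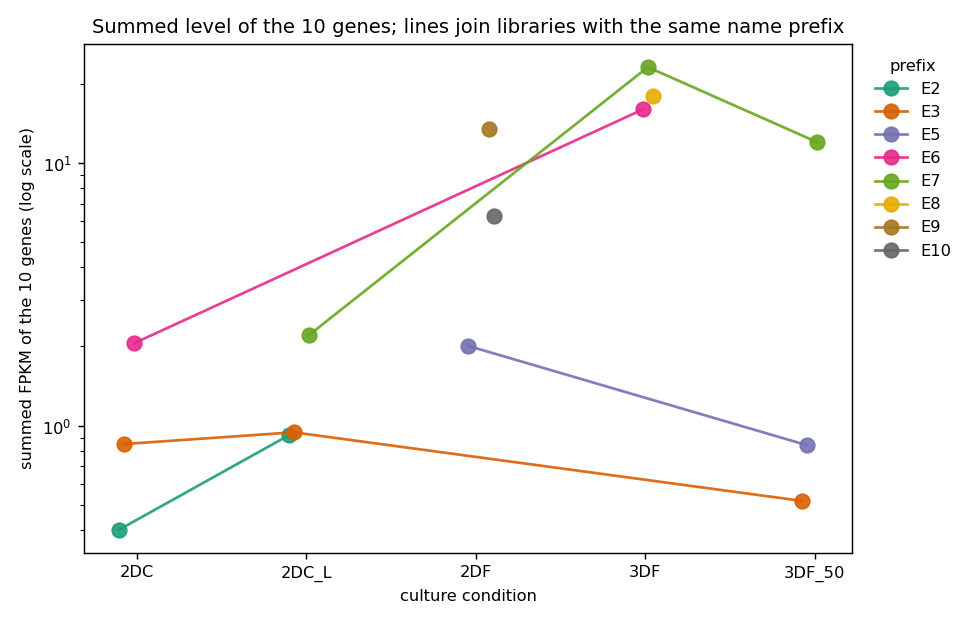
Summed FPKM of the 10 genes (log scale) in each library by culture condition, with lines joining libraries whose names share a prefix. E6 and E7 rise from 2DC or 2DC_L to 3DF, while E3 and E5 are lowest in 3DF_50.

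The make-up of the keratin reads also differed between conditions. Among reads of KRT12 and KRT5 together, KRT12 took 23.4% (95% exact binomial interval 19.7 to 27.4), 23.7% (20.8 to 26.9) and 31.3% (27 to 35.8) in the 3DF libraries. In 3DF_50 replicate 3 it took 31.6% (25.8 to 37.8). In 2DC replicate 3 no read of 60 was from KRT12, which allows a share of up to 5% by the floor of 3 reads and 5.96% by the exact interval. In 2DC_L replicate 3 it was no read of 45 (6.67% and 7.87%), and in 2DF replicate 1 no read of 38 (7.89% and 9.25%). 2DF replicates 2 and 3 lay between, at 14.6% (10.7 to 19.3) and 5.16% (2.25 to 9.92). These intervals cover counting error only, and in the other libraries KRT5 had under 20 reads. At the prefixes E6 and E7, then, the 2D libraries held KRT5 reads without KRT12 reads, and the 3D libraries held both.

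In the 9 libraries with at least 20 KRT5 reads, both KRT3 and KRT17 had reads. The share of KRT3 among KRT3 and KRT5 reads was 12.2% to 16.5% in 3DF and 13% to 16.7% in 2DF. It was 6.25% (1.73 to 15.2) in 2DC replicate 3 and 4.26% (0.52 to 14.5) in 2DC_L replicate 3, both below 3DF with overlapping intervals. It was 29.5% (23.8 to 35.8) in 3DF_50 replicate 3, where it was above all 3DF libraries. The share of KRT17 among KRT17 and KRT5 reads was 21% to 22.9% in 3DF and 28.6% (22.9 to 34.9) in 3DF_50 replicate 3. It was 33.3% (28.5 to 38.5) and 27.6% (21.6 to 34.3) in 2DF replicates 2 and 3, 18.9% (10.7 to 29.7) in 2DC replicate 3, 15.1% (6.75 to 27.6) in 2DC_L replicate 3 and 11.6% (3.89 to 25.1) in 2DF replicate 1. The last 3 shares were below those of 3DF, again with overlapping intervals.

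**Figure D3:**
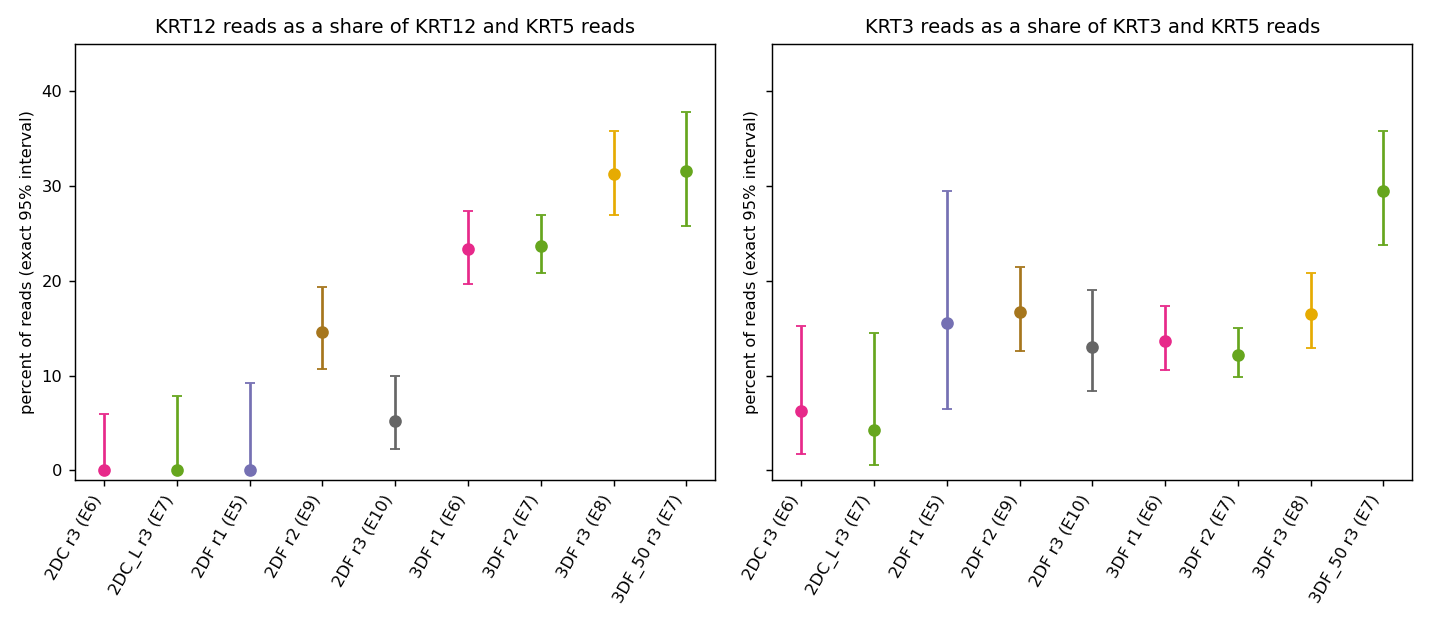
Reads of KRT12 (left) and of KRT3 (right) as a percent of the reads of that gene and KRT5, in the 9 libraries with at least 30 KRT5 reads. Bars are exact 95% binomial intervals. KRT12 is at 0 in 2DC, 2DC_L and 2DF replicate 1 and between 23.4% and 31.6% in the 3D libraries, whereas most intervals of KRT3 overlap.

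The 10 genes varied together. Over the 15 libraries, Pearson's r of log2(FPKM + 0.1) between pairs of them ran from 0.65 to 0.98 (45 pairs, median 0.89) and Spearman's rho from 0.48 to 0.97 (median 0.82). With each condition's mean taken away, r still ran from 0.36 to 0.97 (median 0.81). These values are descriptions over libraries that share conditions and prefixes. Among 12117 other genes, the pattern of KRT12 was most like that of AQP3 (r = 0.98), a water and glycerol channel of surface epithelia. PLET1 (0.96), CDSN (0.95), FAM189A2 (0.94), TRIM29 (0.94), SFN (0.92), PPP1R16B (0.92) and KRT78 (0.92) followed. CDSN encodes corneodesmosin, an adhesion protein of cornified epithelia, SFN encodes 14-3-3 sigma, and KRT78 is a keratin. AQP3, TRIM29, SFN and KRT78 stand on the list of epithelial genes described next.

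KRT5 was most like PLET1 (0.96), SPNS2 (0.92), AQP3 (0.92), SFN (0.91), TRIM29 (0.88), DSG2 (0.88), GNG11 (0.87) and USP13 (0.86). CDSN had 62, 38 and 59 reads in 3DF, 0 in each 2DC library and 0, 0 and 19 in 3DF_50, and its mean was at least 18.9-fold higher in 3DF than in 2DC. PLET1 had 57, 48 and 45 reads in 3DF and 0, 0 and 4 in 2DC. GNG11 and USP13 were expressed in every library, with lowest levels of 6.19 and 1.78 FPKM, and varied over a narrow range.

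**Figure D4:**
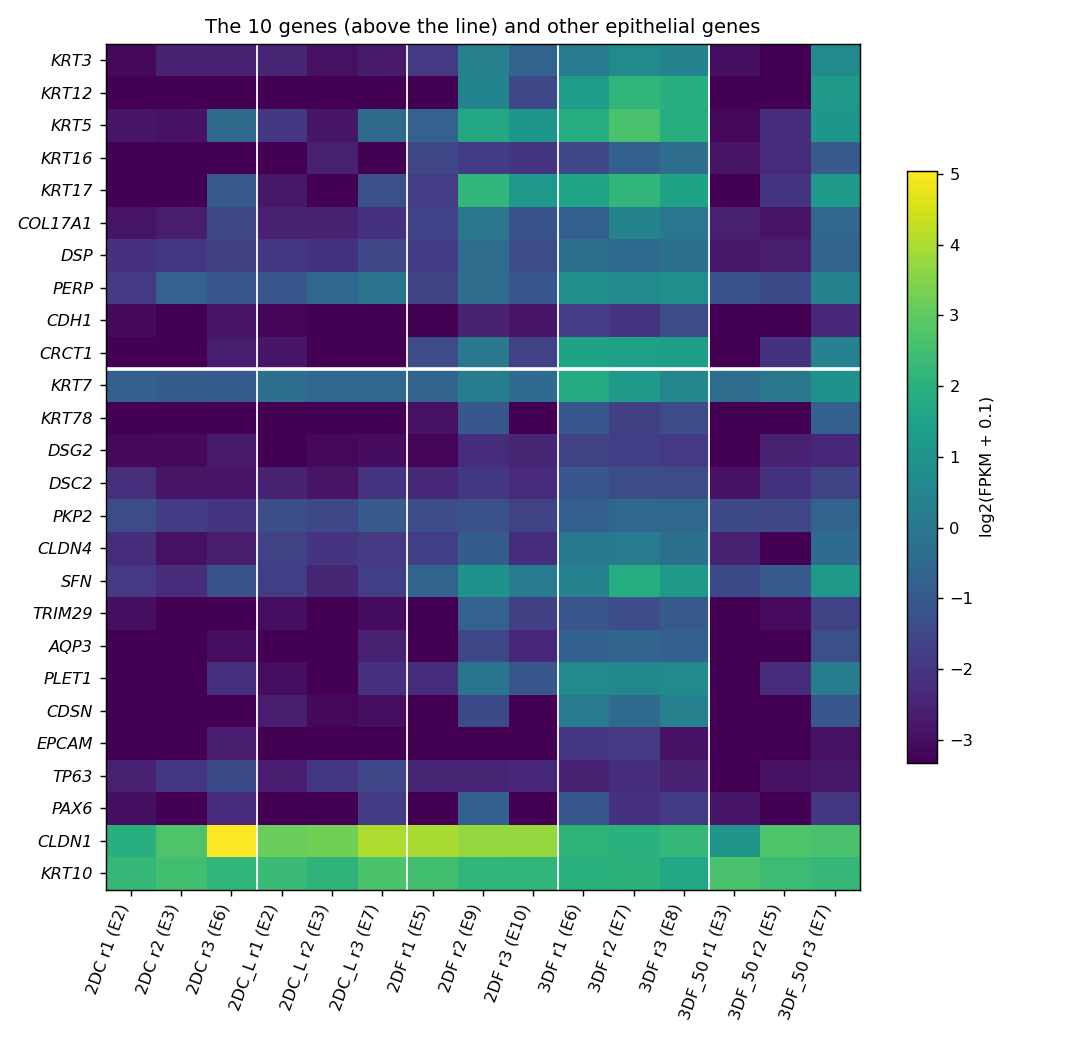
Levels, as log2(FPKM + 0.1), of the 10 genes (above the white line) and of selected other genes (below it) in the 15 libraries, grouped by condition. The rows below the line were picked with their values known. Most of them were called higher in 3DF vs 2DC or were most like KRT12, so their shared pattern is no result. Listed genes that were not called, such as JUP, PPL, EVPL and ITGB4, are not shown. Most rows are brightest in 3DF, 2DF replicate 2 and 3DF_50 replicate 3, while TP63, CLDN1 and KRT10 are not.

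Other genes of epithelial cells were examined on a list of 91, of which 80 were matched in the tables. In 3DF vs 2DC 40 of the 80 passed the filter, 10 were called higher and 1 lower, beside 3.24% and 4.32% of all genes. The median log2 change of the 40 was 0.29, beside 0.012 for all genes. Among those called higher were SFN, at 2.32 ± 1.18 FPKM in 3DF and 0.196 ± 0.111 in 2DC (log2 change 3.54), and KRT7, a simple epithelial keratin (2.31, SE 0.38, edgeR adjusted p = 0.00559). KRT7 had 3.41, 2.17 and 1.35 FPKM in 3DF and 0.445 to 0.489 in 2DC. AQP3 was at least 7.55-fold and TRIM29 at least 8.19-fold higher in 3DF, since neither passed the floor in 2DC. DSG2, a desmosomal cadherin, had 28, 23 and 18 reads in 3DF and 2, 2 and 6 in 2DC. Of the 10 called higher, 6 had at most 9 reads in each 2DC library, SFN, AQP3, TRIM29, DSG2 and CLDN4 among them. DSC2, with 4 to 18 reads in the 2DC libraries and 26 in all, also fell short of 10 in some of them. These genes and DSC2 passed the filter through 3DF and so had to differ. Neither their calls nor the count and median above are evidence of a difference.

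Others called higher, named after their values were seen, were DSC2 (log2 change 2.25), PKP2 (1.42) and CLDN4 (3.54), together with KLF4. Of these, DSC2 and CLDN4 passed the filter through 3DF, as said above. DSC2 and PKP2 are desmosome genes and CLDN4 is a claudin of tight junctions. KLF4, a transcription factor, was of another kind. It had 28.3 to 33.8 FPKM in 2DC and 130 to 253 FPKM in 3DF (2.55, SE 0.25, edgeR adjusted p = 0.000475) and was higher also in 2DF (2.31) and 3DF_50 (1.88) than in 2DC. It was also higher in 2DC than in 2DC_L (1.13). CLU, which encodes the chaperone clusterin, fell from 1010 ± 294 to 355 ± 114 FPKM (log2 change -1.51, SE 0.29, edgeR adjusted p = 0.0105).

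Within the structures to which the 10 genes belong, the genes differed. Of the other desmosome genes 3 of 6 tested by edgeR were called higher in 3DF vs 2DC (DSG2, DSC2 and PKP2), whereas JUP, PPL and EVPL were not called. The median log2 change of the 6 was 0.79. DSG2 and DSC2 passed the filter through 3DF, so neither their calls nor that median are evidence of a difference. DESeq2 called 5, with the cadherins DSG1 and DSG3, which edgeR did not test. DSG1 was at least 5.48-fold and DSG3 at least 3.57-fold higher in 3DF, against 0 reads in every 2DC library. JUP was at a mean of 69.7 FPKM over the 15 libraries. Of 7 hemidesmosome and laminin genes 0 were called by edgeR or DESeq2, and 1 had an unadjusted p under 0.05. ITGB4, the integrin partner of collagen XVII in hemidesmosomes, had 0.5 ± 0.155 FPKM in 3DF and 0.304 ± 0.0645 in 2DC. Of 9 adherens and tight junction genes 2 were called, among them CLDN4. The catenins CTNNB1, CTNNA1 and CTNND1, which bind cadherins in all adherent cells, had means of 117, 112 and 30.2 FPKM and were not called. The other genes with the highest means were SPINT2 (94.2 FPKM) and the locus matched to PLEC (41.1 FPKM).

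**Figure D5:**
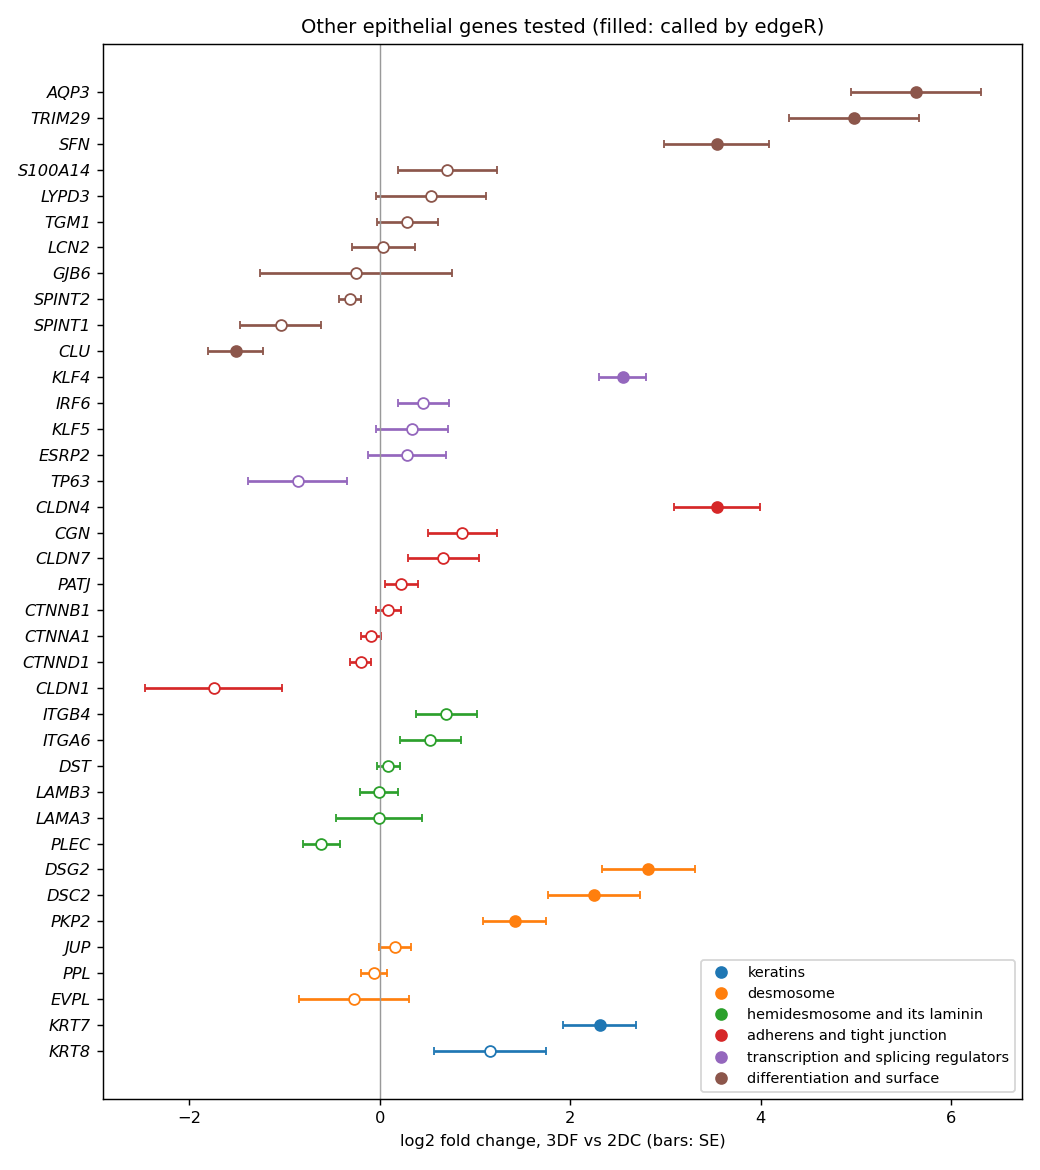
Log2 fold change of 3DF vs 2DC for other epithelial genes that passed the filter on low counts, by group of genes, with bars for the SE. Filled points were called by edgeR. Of the filled points only CLU is lower, and the fitted values of AQP3 and TRIM29 are not bounds because both were at the floor in 2DC.

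The further markers of the corneal epithelium, EPCAM, KRT15, PAX6 and TP63, had few reads. EPCAM, an adhesion molecule of most epithelial cells, had 6, 6 and 1 reads in 3DF and at most 2 in any other library, a mean in 3DF at least 1.48-fold above 2DC. KRT15, a keratin of basal limbal cells, had 1, 5 and 1 reads in 3DF and at most 1 elsewhere. PAX6, the eye-field factor that corneal epithelial cells express, had 13, 4 and 5 reads in 3DF, 0, 12 and 0 in 2DF and at most 4 elsewhere, and its mean in 3DF was at least 2.52-fold above 2DC. TP63, the regulator of stratified epithelia, ran the other way, with 11, 18 and 33 reads in 2DC and 11, 14 and 8 in 3DF. The mean level of TP63 was 0.162 ± 0.102 FPKM in 2DC and 0.0877 ± 0.0214 in 3DF, and it was not called. A few other low genes of the list are named after their values were seen. SPRR3, a cornified envelope gene, had 9, 10 and 10 reads in 3DF and 0 in every 2DC library (at least 3.46-fold), and ESRP1, an epithelial splicing factor, had 7, 8 and 8 and at most 1 (at least 2.75-fold). MUC1, a membrane mucin, went the other way, with 2, 3 and 3 reads in 3DF and 5, 7 and 5 in 2DC (at least 1.78-fold lower in 3DF).

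KRT14 was not matched by symbol. A locus whose protein the deposited annotation matches to mouse keratin 14, LOC100344686, was looked up after its values were seen. It had 13, 49 and 29 reads in 3DF, 0, 33 and 14 in 2DF, and 0, 0 and 4 in 2DC and in 3DF_50. Unlike the 10 genes it thus stayed low in 3DF_50 replicate 3. Its means were 0.833 FPKM in 3DF and 0.54 in 2DF. Among the listed genes with a keratin symbol, only KRT7, KRT10 and members reached a mean of 0.5 FPKM in any condition. The means of KRT10 lay between 3.69 and 5.33 FPKM, lowest in 3DF, and it was not called in 3DF vs 2DC.

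In the other comparisons, fewer other epithelial genes were called than in 3DF vs 2DC. In 2DF vs 2DC it was 3 of 32 higher (2.04% of all genes), among them SFN (log2 change 2.51, SE 0.58) and CGN, which encodes the tight junction protein cingulin (1.25, SE 0.33). In 3DF vs 2DF it was 2 of 39 higher, among them KRT7 (1.63, SE 0.42), and 1 lower, CLDN1 (-1.69, SE 0.21), beside 2.09% and 1.69% of all genes. In 3DF_50 vs 2DC 4 of 32 were higher and 2 lower (4.28% and 7.33%). The higher ones were KLF4, CGN (1.47, SE 0.26), KRT7 (1.29, SE 0.42) and, named after its value was seen, CNFN, at least 3.73-fold above its floor in 2DC. CLU was among the lower ones (-1.22, SE 0.27). In 3DF_50 vs 2DF 0 of 31 were higher and CLDN1 was lower (1.44% and 3.01%), with 6 at an unadjusted p under 0.05 and 1 called by DESeq2. In 3DF vs 3DF_50 0 of 36 were called by edgeR or DESeq2 (0.452% of all genes by edgeR), and 13 had an unadjusted p under 0.05. Among the 10 genes, the median log2 change was 1.95 over 10 tested in 3DF vs 3DF_50 and 0.80 over 3 tested in 3DF_50 vs 2DC. For the other epithelial genes tested it was 0.17 in both comparisons. The genes tested and the share of all genes called differ between these comparisons, so the counts cannot be set against the medians. The comparisons share libraries, so their counts are not independent.

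Marker lists of further cell types differed in direction. In 3DF vs 2DC, 4.32% of all genes were called lower and 3.24% higher. Of 10 keratocyte markers, all tested, 3 were called lower in 3DF than in 2DC, VIM (log2 change -1.02), COL1A1 (-1.49) and THY1 (-1.97), and 0 higher. The remaining 7, KERA (0.19), LUM (0.39) and DCN (0.18) among them, had log2 changes above 0 without a call. The median of the 10 was 0.19. Of 6 corneal endothelial markers 5 were tested. Of these, 3 were called lower, TMEM178A (-2.25), COL8A2 (-1.31) and SLC4A4 (-1.27), and 0 higher. Of 5 conjunctival markers only KRT7 was tested, and the summed level was 0.517 to 0.652 FPKM in 2DC and 1.73 to 3.54 in 3DF. Most of that sum was KRT7 alone, with 0.46 ± 0.0252 FPKM in 2DC and 2.31 ± 1.04 in 3DF. KRT4, a conjunctival keratin, and the locus matched to KRT13 had 0 reads in every library. The summed level of the 7 immune markers was 3.59 to 5.13 FPKM in 3DF and 3.91 to 9.01 in 2DC, and 0 of 3 tested were called by edgeR or DESeq2, with 0 at an unadjusted p under 0.05. PTPRC, the pan-leukocyte gene, had 0 reads in each 2DF library and at most 14 in any. Of the 5 Schwann markers 0 of 4 tested were called by edgeR or DESeq2, with 1 at an unadjusted p under 0.05. Of the 5 vascular endothelial markers 4 were tested, and KDR was called higher (1.30) and TIE1 lower (-2.39). Their summed level was 33.3 to 62.6 FPKM in 2DC and 117 to 119 in 3DF, of which KDR alone had 46 ± 15.1 and 114 ± 2.07, and the defining gene PECAM1 had at most 1 read in any 3DF library. The conjunctival and vascular sums, like the 10 genes, were higher in 3DF without overlap, and their part in the result was not tested. The corneal endothelial sum was 299 to 440 FPKM in 2DC and 125 to 192 in 3DF. The Schwann sum (2.48 to 4.24 and 3.35 to 4.64) and the melanocyte sum (1.06 to 1.7 and 1.4 to 2.91) overlapped between 2DC and 3DF. Of the 4 melanocyte markers 2 were tested, and DCT was called higher (1.34). The summed level of the 10 epithelial genes ran from 0.401 to 2.06 FPKM in 2DC and from 16 to 23.2 in 3DF. Whether epithelial cells carried over from the cornea gave rise to these reads was not tested, and in bulk libraries a few such cells and low expression in many keratocytes cannot be told apart.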

How the data were processed

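RNA-seq libraries were grouped by the condition in their labels. The authors' deposited counts are whole reads per gene, from alignment to oryCun2 with HISAT2 2.0.5 and counting with featureCounts 1.5.0-p3. The strand setting is not given in the sources used here. The authors' deposited FPKM values are these counts divided by gene length and library size. Replicates are separate experiments.

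Levels are FPKM. Differences were tested on counts by the two-sided quasi-likelihood test of edgeR 4.0.16 (R 4.3.3). Each fit held the 2 conditions compared, scaled by TMM, and kept genes that passed filterByExpr at 10 reads. The p-values were adjusted by Benjamini–Hochberg over all genes. A call needs an adjusted p of at most 0.05 and an absolute log2 fold change of at least 1. The test was tried on simulated counts. A condition with at most 3 reads in every library is at the floor, and folds against it use 3 reads per library. Exact intervals have a level of 95%. Likeness is Pearson's r of log2(FPKM + 0.1) over genes with at least 50 reads in all. The alternatives were DESeq2 1.42.0, other scaling, no filter, all 5 conditions, blocks for replicate number or library prefix, and leaving out libraries.

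The genes, the lists and the tests were chosen with earlier results of these data known. Named were the 10 genes, the cell type markers, up to 4 called genes per list and comparison with a mean of at least 0.5 FPKM, the 8 epithelial genes of highest level, the 8 genes most like KRT12 and the 8 most like KRT5, and keratins of at least 0.5 FPKM. Sequences were not used here. A few counted genes are not reported by name or shown in the plots.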

Additional observations from a re-analysis of the deposited data

How the results depend on the processing

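In 3DF vs 2DC the count of the 10 genes called ranged from 9 to 10 when single libraries were left out, and that of the other epithelial genes from 10 to 15. With the library prefix as a block 4 of the 10 genes were called in 3DF vs 2DC, 0 in 3DF vs 2DF and 1 in 3DF_50 vs 2DC, and of the other epithelial genes 0 in 2DF vs 2DC, 0 in 3DF vs 2DF and 0 in 3DF_50 vs 2DF. In that fit of 3DF vs 2DF the log2 changes of KRT3 (-5.70), KRT5 (-0.57), COL17A1 (-1.53) and DSP (-0.75) changed sign; 2DF shares only 1 prefix, E5, with another condition. DESeq2 called 3 of the 10 genes in 2DF vs 2DC and 1 in 3DF_50 vs 2DC, and 5 other epithelial genes in 2DF vs 2DC. Without the filter on low counts it was 7 and 2 of the 10 genes and 5 other epithelial genes in 2DF vs 2DC, and 10 in 3DF_50 vs 2DC. With all 5 conditions in the fit it was 2 of the 10 genes in 2DF vs 2DC and 3 in 3DF_50 vs 2DC, and 5 other epithelial genes in 2DF vs 2DC, 0 in 3DF_50 vs 2DF, 1 in 3DF vs 3DF_50 and 0 in 2DC vs 2DC_L. Scaled by library size only, 6 other epithelial genes were called in 3DF vs 2DF (5 higher) and 13 in 3DF_50 vs 2DC (12 higher and 1 lower, in place of 4 and 2). That scaling moved the median log2 change of all genes from 0.012 to 0.187 in 3DF vs 2DC and from 0.012 to 0.365 in 3DF_50 vs 2DC, and no gene among the 10 was called lower under it. The cause was not tested.

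The replicate number did not pair the libraries. Over all 7 comparisons the correlation of same-numbered libraries ran from -0.155 to 0.313, and none had every number above 0.1. With the replicate number as a block, 2 of the 10 genes were called in 2DF vs 2DC and 1 other epithelial gene in 3DF vs 2DF, and the other counts stayed within 1.5 times.

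Leaving out 1 library gave 0 to 4 of the 10 genes in 2DF vs 2DC, 0 to 4 in 3DF vs 2DF, 0 to 1 in 3DF_50 vs 2DC, 0 to 4 in 3DF_50 vs 2DF, 0 to 8 in 3DF vs 3DF_50 and 0 in 2DC vs 2DC_L. For the other epithelial genes it gave 1 to 4, 1 to 3, 5 to 9, 1 to 2, 0 to 1 and 0 to 1 in the same order. Of these, the count was 1 in 2DF vs 2DC without 2DC replicate 2, 1 in 3DF vs 2DF without 2DF replicate 1 or 3DF replicate 2, 2 in 3DF_50 vs 2DF without 2DF replicate 1 or 2, 1 in 3DF vs 3DF_50 without 3DF_50 replicate 3, and 0 in 2DC vs 2DC_L without replicate 2 of either or 2DC replicate 3 or 2DC_L replicate 1. The PERP log2 change in 2DF vs 2DC ranged from -0.28 to 0.66 and turned negative without 2DC replicate 1 (-0.10) and without 2DF replicate 2 (-0.28). With condition means removed, the median r between the 10 genes was 0.81, and 2 of the 8 genes most like KRT12 and 3 of the 8 most like KRT5 were kept. Leaving out libraries kept 5 to 7 and 6 to 8 of them, with a median r of 0.87 to 0.91.

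Between 29 and 1450 reads per library lie behind the 10 genes, so differences among 2DC, 2DC_L and the first 2 libraries of 3DF_50 rest on few reads for each gene.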
